A study of Mus musculus with 8 samples.

Results

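The polyamine genes described here are Odc1, Amd1, Srm, Sms, Oaz1, Oaz2, Azin1 and Sat1, which were chosen by name as 8 of the 18301 genes to which the deposited transcripts were summed. All 8 were found and all 8 passed the filter on low counts. They were followed in ribosome footprints, the mRNA fragments that translating ribosomes protect, and in total RNA of the same kind of culture. The cells were mouse neurons at day 8 in vitro, grown in Neurobasal-A with B27 after differentiation from CGR8 embryonic stem cells, and were either wildtype (WT) or labelled as a double knockout (DKO) of Eif4g1 and Eif4g3. These genes encode scaffolds that join the mRNA cap to the ribosome, and the title of the series concerns their microexons. The sources used here do not say which part of each gene was removed. Each assay had 2 WT and 2 DKO libraries, so that there were 4 groups. Treatment with cycloheximide, which stops elongating ribosomes, was at 100 µg/ml for 5 minutes, per the labels of both genotypes. WT replicate 2 is the only culture coded WT, while WT replicate 1 has a letter-and-number code like those of the DKO cultures. The labels do not say whether cultures of a genotype were separate clones or differentiations, and p-values therefore cover only the spread among the libraries at hand.

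Polyamines are small, positively charged molecules that bind RNA and are needed for growth, and in neurons they also modulate ion channels. Ornithine decarboxylase (Odc1) makes putrescine, S-adenosylmethionine decarboxylase (Amd1) supplies the aminopropyl donor, spermidine synthase (Srm) makes spermidine and spermine synthase (Sms) makes spermine. Antizymes (Oaz1, Oaz2) bind ornithine decarboxylase and send it to the proteasome, antizyme inhibitor (Azin1) is a decarboxylase relative that sequesters antizyme, and spermidine/spermine acetyltransferase (Sat1) starts their breakdown and export. Much of this circuit is set at translation. Polyamines promote a +1 frameshift that is needed to make antizyme, and short reading frames in the leaders (the stretches before the main start codon) of Amd1, Odc1 and Azin1 mRNA are known to hold back the main frame.

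The frameshift sites are shown because the full antizyme reading frame depends on them. Both are given on GRCm38, 5′ to 3′ on the plus strand, from GENCODE M21 transcripts that run through the site without a gap. Capitals mark the last codon of the first frame and the stop codon after it.
Oaz1, chr10:80828274-80828327: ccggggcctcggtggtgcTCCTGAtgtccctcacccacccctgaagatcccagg
Oaz2, chr9:65686251-65686304: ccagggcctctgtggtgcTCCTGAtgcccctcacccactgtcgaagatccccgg
In Oaz1 the first frame ran for 68 codons to this TGA, and in Oaz2 for 32. The annotated coding sequence left out 1 base there, the T of the stop codon, and went on for 159 codons in Oaz1 and 157 in Oaz2.

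Upstream frames are shown for the members whose leaders held an ATG frame of at most 30 nt that closed before the main start codon. Each is written 5′ to 3′ on the gene's strand, with its own start and stop codon in capitals. Starts other than ATG were not searched. The printed frames were picked by length and were not matched to the frames known to hold back translation.
Amd1, chr10:40302155-40302175, minus strand: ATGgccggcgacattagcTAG
Odc1, chr12:17544921-17544947, plus strand: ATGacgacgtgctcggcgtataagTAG
Azin1, chr15:38514482-38514505, minus strand: ATGatagggggttccatctccTAA
Azin1, chr15:38501507-38501536, minus strand: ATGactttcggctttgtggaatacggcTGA
Sat1, chrX:155216271-155216285, minus strand: ATGgtgccagccTGA
The Amd1 frame of 6 codons began at base 12 of the annotated transcript and ended 296 nt before the main start. The second Azin1 frame ended 1 nt before the main start. Longer closed frames, not printed, were 1 of 33 nt in Odc1, 1 of 54 nt in Azin1 and 3 of 51, 78 and 210 nt in Sms. That of Odc1 had 10 codons and began 148 nt before the main start. Leaders were 489 nt in Odc1, 328 nt in Amd1, 590 nt in Azin1, 334 nt in Sms and 177 nt in Sat1, with 2, 1, 3, 4 and 2 upstream ATGs in that order. Srm (117 nt), Oaz1 (74 nt) and Oaz2 (198 nt) had none. Over 12853 genes with a coding transcript the median leader was 178 nt, 50.9% had an upstream ATG and 43.3% had a frame that closed within the leader. A frame in the sequence is a description, and whether ribosomes used it cannot be read from sums over a transcript.

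The libraries held 10490535 to 19753419 estimated counts in footprints and 14762047 to 44786643 in RNA. Member counts ranged from 353 for Sat1 to 28114 for Sms in a library, and values are given as CPM, counts scaled to the library total, for replicate 1 and then replicate 2. The first principal component took 58.8% of the variance in each assay and set WT replicate 2 apart, at 30.6 in footprints and 25.8 in RNA, while the other 3 libraries lay between -12.8 and -5.57. For Eif4g1 the WT footprints held 299.8 and 263 CPM and the DKO footprints 154 and 287.5 CPM, and for Eif4g3 169 and 153 CPM against 164 and 172 CPM. For Eif4g1 the WT RNA held 288 and 279.9 CPM and the DKO RNA 125 and 305 CPM, and for Eif4g3 120.1 and 128 CPM against 102.9 and 138 CPM. DKO replicate 1 lay below both WT libraries for Eif4g1 in each assay and for Eif4g3 in RNA, whereas the libraries labelled DKO replicate 2 did not lie below WT for either gene. DKO is used here as the label. Of 5 glutamatergic markers, 3 reached a mean of 1 CPM, and their sum was 80.7 to 240 CPM in footprints, against 531 to 606 CPM for 5 GABAergic markers and 6269 to 7563 CPM for 7 general neuronal markers. WT replicate 2 had the highest sums for markers of dividing cells (601 CPM in footprints, against 430 to 493 CPM) and of fibroblast, mural and endothelial cells (929 CPM, against 189 to 581 CPM). Other marker sums went with the genotype labels. Both DKO cultures lay below both WT cultures, in each assay, for dividing cells and for progenitors and radial glia (footprints 3475 and 3862 CPM against 4362 and 4703 CPM). The same held for astrocytes (1514 and 1438 CPM against 1561 and 1611 CPM) and the oligodendrocyte lineage (712 and 766 CPM against 901 and 1105 CPM). Markers at 0 or absent from the data were Mki67 (of 10 for dividing cells), Sox2 and Sox1 (of 7 for progenitors) and Olig1 (of 8 for oligodendrocytes). Both DKO cultures lay above both WT cultures for glutamatergic markers (240.0 and 200.1 CPM against 172 and 80.7 CPM). The part of these marker sums in the differences between the genotypes was not tested. In such bulk samples fewer cells of a type and less RNA per cell cannot be told apart.

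The members were among the better expressed genes. Per kb of transcript, Oaz1 RNA was the highest of them at a mean of 170 CPM per kb over the 4 RNA libraries, above 97.3% of the 12898 genes tested. Sms followed at 147 CPM per kb (117 to 161), and Odc1 (112, 105 to 127), Azin1 (109) and Oaz2 (101) lay close to each other and overlapped in their libraries, as Odc1 did with Sms. Amd1 stood at 57.9 CPM per kb, Srm at 35.6 and Sat1 at 34.1, and the last 2 overlapped. Per kb of coding sequence, Sms led in footprints at 398 CPM per kb (312 to 451), followed by Oaz1 at 290 (265 to 310). Odc1 (177), Azin1 (163) and Oaz2 (156) came next with overlapping libraries, then Srm (107), and Sat1 (65.9) and Amd1 (63.9), which overlapped. This order depends on the transcript models. The coding lengths used were 1073 nt for Azin1 and 483 nt for Oaz2, below their 1357 and 711 annotated coding bases. Of the Azin1 footprints 23.9% to 31.3% lay on a transcript with no coding base. Over all coding bases both genes would stand lower. The lowest placed member was Amd1 in footprints, above 74.0% of genes tested (its RNA above 89.2%), and Sat1 in RNA, above 80.6%.

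Odc1 (ENSMUSG00000011179, chr12:17544794-17551505, plus strand), the decarboxylase that opens the pathway, had 240.5 and 280 CPM in the footprints of WT, and 228 and 229 CPM in those of DKO. WT RNA held 232 and 280 CPM and DKO RNA 241 and 234 CPM. Both DKO values lay below both WT values in footprints, whereas the groups overlapped in RNA, and WT replicate 2 was the highest library in each assay. The log2 fold change (DKO over WT) was -0.18 ± 0.12 (SE) in footprints (edgeR quasi-likelihood test, adjusted p = 0.854) and -0.11 ± 0.12 in RNA (adjusted p = 0.93). Without both libraries of WT replicate 2 the values were -0.07 in footprints and 0.03 in RNA. The part of the higher dividing-cell and fibroblast marker sums of that culture in these values was not tested.

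Amd1 (ENSMUSG00000075232, chr10:40287458-40302186, minus strand), which makes the donor for spermidine and spermine, had 63.5 and 74.0 CPM in the footprints of WT, and 53.6 and 65.0 CPM in those of DKO. WT RNA held 189.6 and 186 CPM and DKO RNA 186 and 181 CPM. The footprint groups overlapped, and the DKO RNA values lay just below those of WT. The log2 fold change was -0.21 ± 0.11 in footprints (edgeR, adjusted p = 0.849) and -0.03 ± 0.11 in RNA (adjusted p = 0.987). The footprint value was not called under any left-out library, over which it ranged from -0.352 (without DKO replicate 2) to -0.0749 (without both libraries of DKO replicate 1). Amd2, a near-identical copy, was looked for but was not among the genes in the deposited data. Reads shared with Amd2 could be counted as Amd1.

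Srm (ENSMUSG00000006442, chr4:148591503-148594993, plus strand) was the only member with an unadjusted p under 0.05 between the genotypes. It makes spermidine. WT footprints held 93.5 and 86.8 CPM and DKO footprints 102.7 and 105 CPM. WT RNA held 41.5 and 41.6 CPM and DKO RNA 52.3 and 47.3 CPM. The DKO libraries lay above the WT libraries in both assays. The log2 fold change was 0.20 ± 0.09 in footprints (edgeR, adjusted p = 0.849) and 0.27 ± 0.09 in RNA (adjusted p = 0.851), so that neither passed after adjustment over all genes. With protein-coding transcripts alone the values were 0.19 ± 0.12 and 0.24 ± 0.12, and the unadjusted p was under 0.05 in neither assay. In footprints it was also not under 0.05 with DESeq2, RLE scaling, no filter, the footprint libraries alone or the replicate number as a block. The same held with any single RNA library left out. It stayed under 0.05 in footprints with limma-voom, TMM within each assay, a mean count of at least 50 and crossed replicate numbers. Over left-out libraries the value ranged from 0.148 to 0.275 in footprints and from 0.189 to 0.365 in RNA.

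Sms (ENSMUSG00000071708, chrX:157443855-157492287, minus strand) makes spermine and had the widest gap of the members between the WT cultures. WT footprints held 495 and 343 CPM and DKO footprints 479 and 432 CPM. WT RNA held 583 and 422 CPM and DKO RNA 576 and 539 CPM. WT replicate 2 was the lowest library in both assays and the DKO libraries lay between the WT libraries, so that the groups overlapped. Between the WT cultures the log2 difference (replicate 2 minus replicate 1) was -0.53 in footprints and -0.47 in RNA, larger in size than the genotype values of 0.12 ± 0.19 and 0.15 ± 0.19 (edgeR, adjusted p = 0.946 and 0.941). Without both libraries of WT replicate 2 the genotype values turned to -0.12 and -0.06.

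For the antizymes the genotype values were small beside their errors. Oaz1 (ENSMUSG00000035242, chr10:80826656-80829290, plus strand) had 188 and 209.5 CPM in the footprints of WT, and 207 and 179 CPM in those of DKO. WT RNA held 317 and 306 CPM and DKO RNA 343 and 310.0 CPM. The groups overlapped in both assays, with log2 fold changes of -0.05 ± 0.11 in footprints (edgeR, adjusted p = 0.967) and 0.07 ± 0.11 in RNA (adjusted p = 0.965). Oaz2 (ENSMUSG00000040652, chr9:65668001-65690300, plus strand) had 72.2 and 74.4 CPM in the footprints of WT, and 75.0 and 80.2 CPM in those of DKO. WT RNA held 98.2 and 90.4 CPM and DKO RNA 98.5 and 86.4 CPM. Its DKO footprints lay just above WT and its RNA groups overlapped, with values of 0.08 ± 0.10 (edgeR, adjusted p = 0.916) and -0.03 ± 0.10 (adjusted p = 0.991).

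Azin1 (ENSMUSG00000037458, chr15:38487427-38519266, minus strand), which frees ornithine decarboxylase from antizyme, had 195.5 and 169.7 CPM in the footprints of WT, and 161 and 173 CPM in those of DKO, which overlapped. WT RNA held 492.5 and 463 CPM and DKO RNA 442 and 432 CPM, so that both DKO libraries lay below WT. The log2 fold change was -0.13 ± 0.11 in each assay (edgeR, adjusted p = 0.875 in footprints and 0.898 in RNA), and in footprints it ranged from -0.229 without both libraries of WT replicate 2 to -0.00452 without those of WT replicate 1. Sat1 (ENSMUSG00000025283, chrX:155213132-155216449, minus strand), the acetyltransferase, was the least abundant member in counts, with 34.7 and 36.2 CPM in the footprints of WT, and 36.7 and 32.5 CPM in those of DKO. WT RNA held 35.9 and 36.9 CPM and DKO RNA 42.6 and 37.1 CPM. Only its RNA groups did not overlap, and the values were -0.04 ± 0.11 (edgeR, adjusted p = 0.974) and 0.14 ± 0.10 (adjusted p = 0.889).

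**Figure D1:**
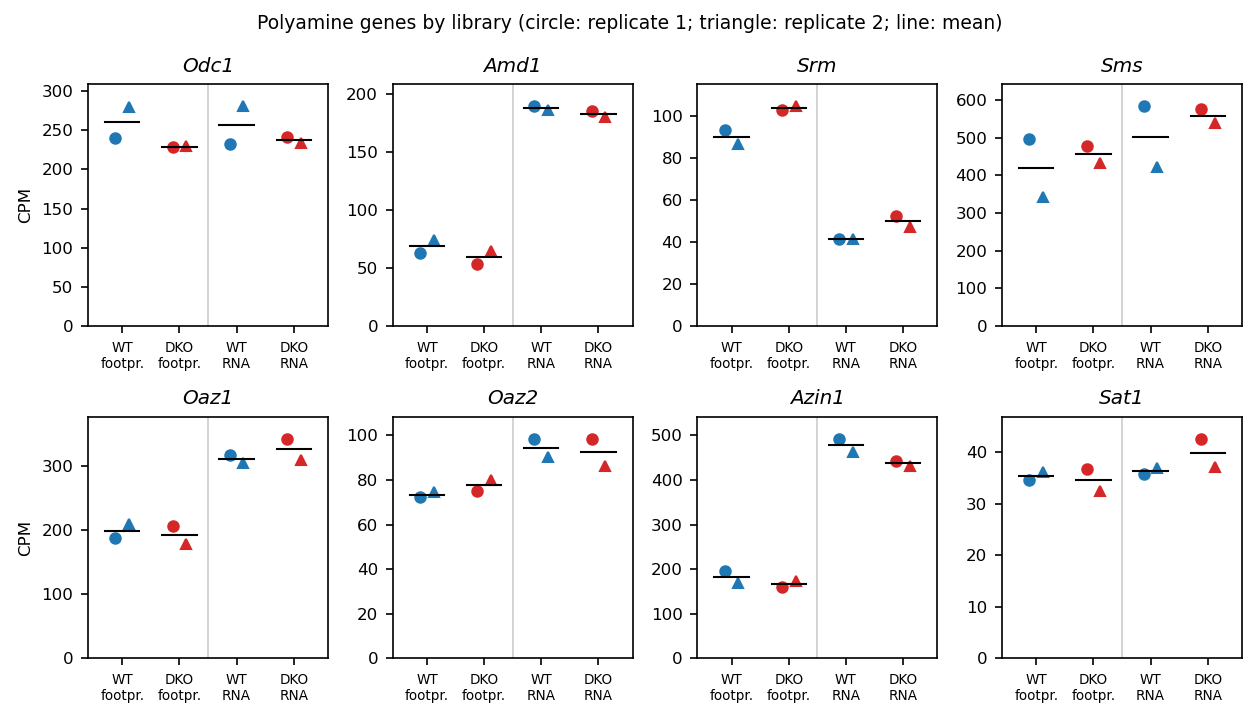
Library-scaled counts (CPM, linear axes from 0) of each polyamine gene in WT (blue) and DKO (red) footprints and RNA, with circles for replicate 1, triangles for replicate 2 and a line at the mean of 2 libraries. Amd1 and Azin1 sit far lower in footprints than in RNA, Srm higher, and WT replicate 2 is the lowest library of Sms in each assay.

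No member was called different between the genotypes. In footprints 0 of 8 members passed an adjusted p under 0.05 in edgeR, where 0.00775% of all 12898 genes did, and 0 passed in DESeq2 and limma-voom. In RNA the count was 0 of 8 in edgeR, against 0.0155% of all genes, and 0 in the other 2 tools. For translational efficiency, the change in footprints relative to the change in RNA, it was 0 of 8 in edgeR against 0% of all genes, and again 0 in the other 2 tools. At an unadjusted p under 0.05 there was 1 member (Srm) in footprints, 1 (Srm) in RNA and 0 in translational efficiency, where 5.62%, 5.57% and 0.853% of all genes stood there. The median over the members was -0.04 for footprints, 0.02 for RNA and -0.07 for translational efficiency on the log2 scale, beside 0.003, -0.001 and 0.01 over all genes.

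The 95% confidence intervals show which sizes remained possible for each gene. For translational efficiency the estimates ran from -0.17 ± 0.15 for Sat1 and -0.17 ± 0.16 for Amd1 to 0.11 ± 0.14 for Oaz2, with adjusted p = 1 for all 8 in edgeR. The interval was -0.44 to 0.29 for Odc1, -0.52 to 0.18 for Amd1, -0.46 to 0.23 for Oaz1, -0.20 to 0.42 for Oaz2 and -0.34 to 0.33 for Azin1. That of Sms was the widest, at -0.64 to 0.58. Changes within these bounds could not be told from no change in this fit, which does not pair the assays of a culture. For Sms the CPM ratio of footprints to RNA was 0.85 and 0.811 in WT cultures and 0.832 and 0.801 in DKO cultures. With the culture as a block, Sms translational efficiency was -0.02 ± 0.15, against -0.03 ± 0.27 in the unpaired fit. The error of Srm was 0.13 in both fits. Each interval is for a single gene before adjustment over all genes, so its bounds are not a limit of detection.

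**Figure D2:**
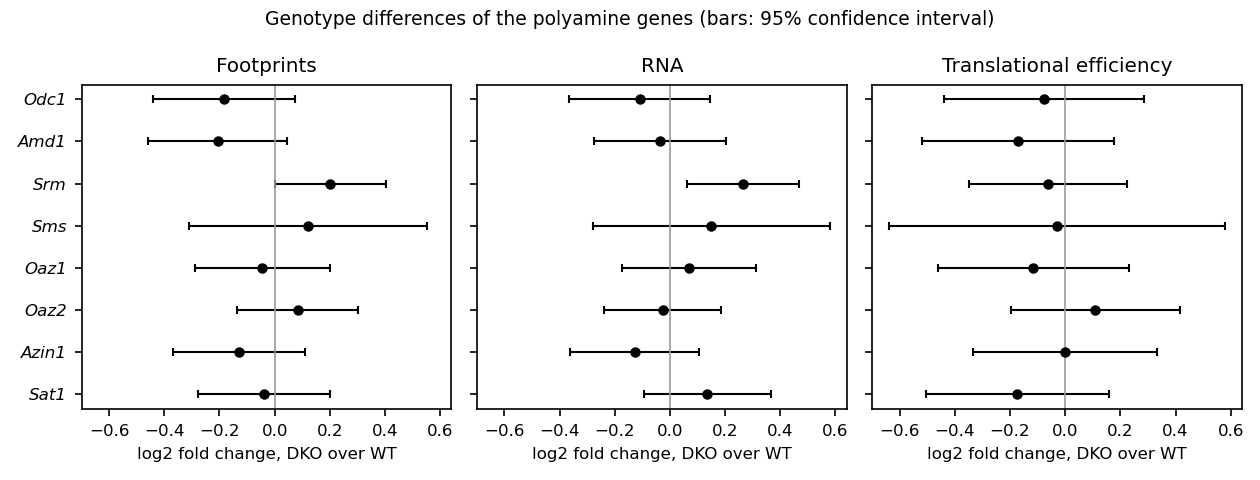
Log2 fold change of DKO over WT for each polyamine gene in footprints, RNA and translational efficiency, as a point with its 95% confidence interval from the edgeR fit. The intervals cross 0 in all panels except for Srm, at 0.0011 to 0.403 in footprints and 0.0613 to 0.469 in RNA.

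The members differed far more in how many footprints they had for their RNA than between genotypes. Relative to the typical gene, Amd1 footprints were low for its RNA, with a log2 ratio of -1.45 ± 0.11 in WT (edgeR, adjusted p = 6.04e-07) and -1.62 ± 0.11 in DKO (adjusted p = 2.95e-07). The CPM ratio of Amd1 was 0.335 and 0.397 in the WT cultures and 0.288 and 0.359 in the DKO cultures, and only 6.2% of genes in WT and 4.9% in DKO had a lower log2 ratio. Azin1 was close to it, at -1.39 ± 0.11 in WT (edgeR, adjusted p = 6.51e-07) and -1.39 ± 0.11 in DKO (adjusted p = 6.76e-07), with CPM ratios of 0.397, 0.367, 0.364 and 0.400.

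Odc1 lay near the typical gene. The CPM ratio of Odc1 was 1.04 and 0.999 for WT cultures and 0.946 and 0.981 for DKO cultures, with log2 values of 0.02 ± 0.12 (edgeR, adjusted p = 0.886) and -0.05 ± 0.12 (adjusted p = 0.699). The antizymes were lower than the typical gene. Oaz1 stood at -0.65 ± 0.11 in WT (edgeR, adjusted p = 3.11e-04) and -0.76 ± 0.11 in DKO (adjusted p = 8.94e-05). Oaz2 stood at -0.36 ± 0.10 in WT (edgeR, adjusted p = 0.00682) and -0.25 ± 0.10 in DKO (adjusted p = 0.0407), and its call was lost in WT without WT replicate 1 (-0.26) and in DKO with RLE scaling, DESeq2 or limma-voom (-0.24 each), with no filter (-0.21) and without DKO replicate 1 (-0.10) or 2 (-0.39).

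The synthases and the acetyltransferase gave the rest of the range. Srm had the highest ratio of the members, with CPM ratios of 1.96 to 2.25 and log2 values of 1.12 ± 0.09 in WT (edgeR, adjusted p = 1.02e-06) and 1.05 ± 0.09 in DKO (adjusted p = 1.49e-06), above 90.4% and 89.1% of genes. Sms stood at -0.26 ± 0.19 in WT (edgeR, adjusted p = 0.256) and -0.29 ± 0.19 in DKO (adjusted p = 0.206), and Sat1 at -0.04 ± 0.11 (adjusted p = 0.764) and -0.21 ± 0.11 (adjusted p = 0.101). In all, 1 member was called higher and 4 lower in WT, where 31.4% of all genes were called higher and 33.8% lower (65.1% in either direction). In DKO the counts were also 1 and 4, where 32.1% were called higher and 33.3% lower (65.4% in either direction). A share of 5 in 8 in either direction lies near that background. The median over the members was -0.31 in WT and -0.27 in DKO, beside -0.02 and -0.01 over all genes.

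Length bears on these ratios, since footprints come mostly from coding sequence and RNA reads from the whole transcript. The count-weighted RNA length was 3204 nt for Amd1 and 4196 nt for Azin1, against coding lengths of 1002 and 1073 nt. With footprints per coding kb over RNA per transcript kb, centred on the median gene, Amd1 stood at -0.85 in WT and -1.04 in DKO, above 20.2% and 15.8% of genes, and Azin1 at -0.49 and -0.51. Odc1 came to -0.38 and -0.47, Oaz1 to -0.25 and -0.37, Oaz2 to -0.51 and -0.41 and Sat1 to -0.04 and -0.22. Srm stayed positive at 0.55 and 0.47, and Sms turned to 0.38 and 0.34. Amd1 had the lowest of the 8 ratios on these 2 scales in each genotype, but its interval for whole-gene counts overlapped that of Azin1. In WT the order turned without the footprints of WT replicate 1 (Amd1 -1.35, Azin1 -1.49), and with protein-coding transcripts alone Amd1 (-1.42 in WT) lay above Azin1 and Oaz1. The ranking per length also depends on the transcript models. The RNA length of Oaz1 was 1874 nt, mostly from Oaz1-206, which has 1468 nt outside the standard transcript. The coding length of Azin1 was below the 1344 nt of Azin1-203. A shorter RNA length or a longer coding length lowers the ratio, and the ranking with such lengths was not tested.

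**Figure D3:**
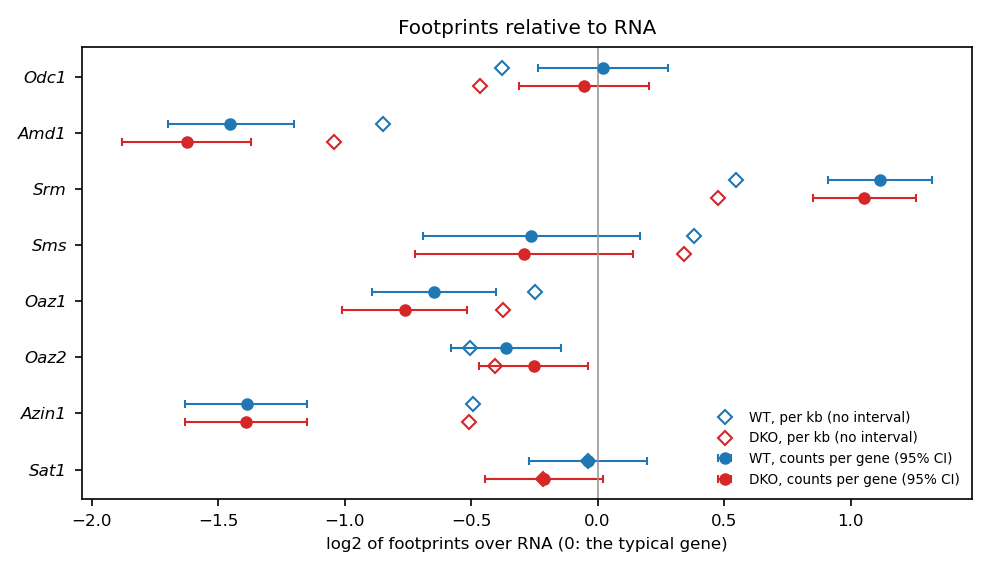
Log2 ratio of footprints to RNA for each polyamine gene in WT (blue) and DKO (red), as filled circles with a 95% confidence interval for whole-gene counts and as open diamonds for values per coding kb and per transcript kb, which have no interval. Amd1 lies farthest to the left and Srm farthest to the right on both scales, while Sms changes sides of 0 between the scales in both genotypes and Odc1 in WT.

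The transcripts that held the counts differed between the assays, and for several members this touches the ratio. Odc1 and Amd1 each had 1 transcript in the analysis, of 8 and 4 annotated, so that their counts were not spread over isoforms here. Whether kallisto divided their reads with transcripts missing from the deposited data is not known. Srm had 60.8% to 67.2% of its footprint counts but 4.94% to 11.4% of its RNA counts on Srm-203, an 841-nt retained-intron transcript of which 715 nt are coding bases of the gene. With transcripts annotated as protein coding alone, the log2 ratio of Srm turned to -0.22 in WT and -0.27 in DKO, and was no longer called (edgeR, adjusted p = 0.143 and 0.0736). The high ratio of Srm therefore depends on counting that transcript.

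The antizymes rest on transcripts that are not standard coding models. Of 7 annotated Oaz1 transcripts 2 entered the analysis, and 98.7% to 99.3% of its footprint counts and 65.9% to 70.6% of its RNA counts lay on Oaz1-206, a retained-intron model of 2526 nt with 701 coding bases that runs across the frameshift site. The short coding transcript Oaz1-204 (520 nt, 284 nt of it after the stop codon), which does not span the site, took 29.4% to 34.1% of RNA counts and 0.73% to 1.26% of footprint counts. With protein-coding transcripts alone, which for Oaz1 means Oaz1-204, its log2 ratio was -5.68 in WT and -5.83 in DKO. In Oaz2 the counts lay on Oaz2-202, which starts downstream of the frameshift site (39.4% to 43.8% of footprints, 62.3% to 67.7% of RNA), and on Oaz2-205, which spans it (44.1% to 60.2% and 28.6% to 31.4%). Another 14.5% and 0.49% of WT footprints and 0% and 12.4% of DKO footprints lay on Oaz2-207, which also spans the site. Oaz2-203 spans it as well, and held 0% of footprints and 3.72% to 6.66% of RNA. The models that span a site also hold bases after it, so that a frameshift rate cannot be taken from these sums.

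Azin1 footprints lay to a large extent on a transcript with no coding base. Azin1-208, a 622-nt processed transcript that shares 479 nt with the Azin1 leader and none with its coding sequence, held 954 and 667 footprint counts in WT and 369 and 916 in DKO. In RNA it held 6 and 4 counts (WT) and 22 and 4 counts (DKO). As a share of the gene this was 27.5% and 28.6% of footprints in WT and 23.9% and 31.3% in DKO, against 0.04% to 0.10% of RNA. The groups overlapped, so the genotypes did not separate. Azin1-208 contains 2 of the 3 closed ATG frames of the leader, namely that at chr15:38514482-38514505 and the one of 54 nt. A further 24.0% to 29.0% of footprints, against 2.36% to 3.94% of RNA, lay on Azin1-207, a 747-nt model with 232 leader and 449 coding bases. Without transcripts of other classes than protein coding, the log2 ratio of Azin1 was -1.77 in WT and -1.72 in DKO.

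Sat1 also differed between the assays, Sms little. Sat1 footprints lay on the standard Sat1-202 (68.7% to 86.9%, against 9.63% to 19.1% of RNA), and Sat1 RNA on Sat1-201 (60.1% to 76.1%, against 7.93% to 13.3% of footprints), a longer model with 287 bases outside the standard transcript. In Sms 84.2% to 88.5% of footprints and 91.6% to 93.7% of RNA lay on Sms-201. These divisions are estimates of kallisto for short reads and are given as a description.

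**Figure D4:**
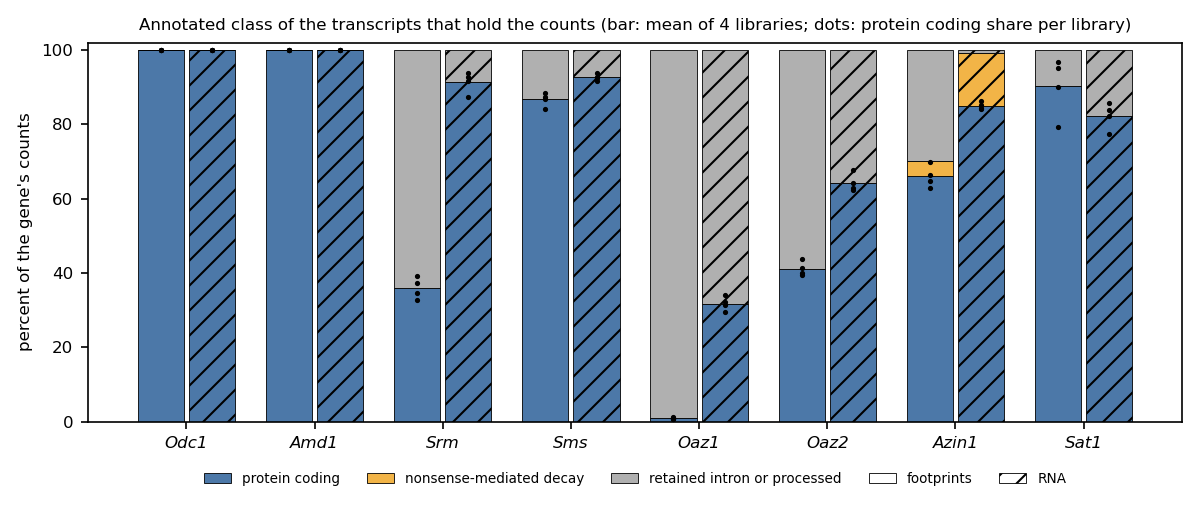
Share of each polyamine gene's counts on transcripts annotated as protein coding (blue), nonsense-mediated decay (yellow) or retained intron and processed transcript (grey), for footprints (plain) and RNA (hatched), as the mean over the 4 libraries of an assay, with dots for the protein coding share in each library. Oaz1 footprints lie almost wholly, and Srm and Oaz2 footprints mostly, in the last class.

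A wider list of polyamine-related genes showed the same lack of genotype calls. Of 32 listed genes 30 were found and 27 tested, and 0 were called in edgeR in footprints, RNA or translational efficiency, with 3, 2 and 0 of 27 at an unadjusted p under 0.05, where 5.62%, 5.57% and 0.853% of all genes stood. The cationic amino acid transporters Slc7a3 and Slc7a1, which import arginine, had the smallest p-values of the list in footprints and in RNA. For Slc7a3 the WT footprints held 14.8 and 8.43 CPM and the DKO footprints 34.2 and 25.5 CPM, a log2 change of 1.34 ± 0.30 (edgeR, adjusted p = 0.836), and its RNA at 7.48 and 5.85 CPM against 14.9 and 10.5 CPM, 0.96 ± 0.30 (adjusted p = 0.851). For Slc7a1 the WT footprints held 81.0 and 61.3 CPM and the DKO footprints 98.0 and 89.4 CPM, with values of 0.39 ± 0.12 (edgeR, adjusted p = 0.836) and 0.38 ± 0.12 in RNA (adjusted p = 0.851). The DKO libraries lay above the WT libraries for both genes in both assays. Slc7a3 was called in footprints with DESeq2 (1.35) and without both libraries of WT replicate 1 (1.83), the last also in RNA (1.15) and for Slc7a1 footprints (0.63).

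The other genes named here are those of the list next by rank of p, whether or not that p was small. In footprints these were Paox, a polyamine oxidase (0.30 ± 0.14), Mri1 and Adi1 of methionine salvage (0.25 ± 0.12 and -0.22 ± 0.12) and Eif5a2 (-0.26 ± 0.11), with adjusted p = 0.849 each in edgeR. In RNA they were Atp13a4, of a family of polyamine-transporting ATPases (0.65 ± 0.35), Mri1 (0.21 ± 0.11), Adi1 (-0.20 ± 0.12) and Mtap, the salvage phosphorylase (-0.16 ± 0.11). The adjusted p of these genes was 0.851 to 0.864 in edgeR. For translational efficiency they were Atp13a4 (-0.50 ± 0.56), Atp13a3 (0.27 ± 0.22), Azin2 (0.23 ± 0.21), Myc (0.20 ± 0.18), Paox (0.17 ± 0.20) and Eif5a2 (-0.15 ± 0.15), with adjusted p = 1 each in edgeR.

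Footprints relative to RNA ranged widely over the wider list. In WT 11 of 27 were called higher and 6 lower in edgeR, where 31.4% of all genes were called higher and 33.8% lower. In DKO the counts were 14 and 5 of 27, where 32.1% and 33.3% of all genes were called, and 15 genes were called in both genotypes. In either direction, 17 of 27 were called in WT and 19 of 27 in DKO, near the 65.1% and 65.4% of all genes. By direction, the list had a larger share called higher and a smaller share called lower than all genes, in both genotypes. No test of the list was run. The 17 called genes in WT became 11 without both libraries of WT replicate 1, and the 19 in DKO became 10 without those of DKO replicate 1 and 11 without those of DKO replicate 2. The list's median was 0.30 in WT and 0.39 in DKO. Eif5a, an elongation factor that carries hypusine, a residue made from spermidine, was high at 1.92 ± 0.12 in WT and 1.88 ± 0.12 in DKO, and Dohh, which completes hypusine, stood at 0.44 ± 0.10 and 0.39 ± 0.10. Eif5a2, its paralog, was low at -1.35 ± 0.11 and -1.50 ± 0.11 for whole-gene counts, but turned to 1.04 and 0.87 per coding and transcript length. Among regulators of Odc1 transcription, Myc stood at 2.12 ± 0.13 and 2.31 ± 0.13 and Max at 0.81 ± 0.11 and 0.70 ± 0.11.

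The precursor and salvage genes were mostly on the high side. Arg2, an arginase, stood at 1.05 ± 0.17 in WT and 1.14 ± 0.17 in DKO, the aminotransferase Oat at 0.93 ± 0.13 and 1.03 ± 0.13, Slc7a3 at 0.83 ± 0.31 and 1.21 ± 0.29 and Slc7a1 at 0.37 ± 0.12 and 0.39 ± 0.12. In methionine salvage Adi1 stood at 1.69 ± 0.12 and 1.67 ± 0.12, Apip at 0.90 ± 0.11 and 0.80 ± 0.10 and Enoph1 at 0.36 ± 0.10 and 0.38 ± 0.10, while Mat2b, a subunit of the enzyme that makes S-adenosylmethionine, was low at -1.70 ± 0.10 and -1.66 ± 0.10. The spermine oxidase Smox stood at -0.49 ± 0.12 and -0.47 ± 0.12, and the lysosomal polyamine exporter Atp13a2 at -0.34 ± 0.12 and -0.43 ± 0.12. Mri1 (-0.31 ± 0.12) and Atp13a3 (-0.45 ± 0.16) were called in WT, and Mtap (0.27 ± 0.11), Paox (0.47 ± 0.14), Sat2 (0.47 ± 0.17) and Atp13a4 (-1.05 ± 0.38) in DKO. Whether these 6 differ between the genotypes is what the translational efficiency contrast tests, and none was called there.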

How the data were processed

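Footprints were made with the ARTseq kit, per the labels' protocols. The tools are kallisto, Bowtie, Trimmomatic and FastQC, with no versions, per the submitters' processing notes. The deposited table holds the authors' estimated counts for 60528 Ensembl transcripts, all whole. The sources used here do not give the build or the use of strand. The transcript set is given only by a name that holds prot_trans_tsl. This apparently means transcripts of protein-coding genes picked by annotated support level, and it is not explained further. Of the transcripts 99.86% matched GENCODE M21 (GRCm38), and their counts were summed to 18301 genes. The unmatched held 0.0765% to 0.151% of a library.

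All libraries were fitted in edgeR 4.0.16 (quasi-likelihood, robust, TMM, 4 group means, 4 residual degrees of freedom) on 12898 genes that passed filterByExpr (minimum count 10) in both assays. Calls were Benjamini-Hochberg adjusted p under 0.05. Translational efficiency is the interaction of assay and genotype. The fit was tested on simulated data. CPM use TMM-scaled library sizes. Levels per kb used count-weighted annotated lengths. Frames were read from GENCODE M21 transcripts. The members and lists were chosen with earlier results of these data known. Named genes are the 8 members and, from the wider list, those called in a comparison or the 6 with the smallest p. Footprint and RNA libraries of a genotype and number were taken as 1 culture from their codes, and their deviations correlated at 0.658 in WT and 0.216 in DKO. This match is uncertain for DKO replicate 2, whose code has several spellings. The fit counts libraries of a culture as independent. Alternatives were DESeq2 1.42.0, limma-voom 3.58.1, RLE scaling, no filter, TMM within each assay, protein-coding transcripts, a minimum mean count of 50, 1 assay alone, replicate blocks, left-out libraries and cultures, and, added after seeing the data, crossed numbers.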

Additional observations from a re-analysis of the deposited data

How the results depend on the processing

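Of the wider list, 95 footprints-over-RNA values were no longer called under an alternative. They were among 794 values, which also hold ratios per length, not tested, and numbers of genes called. No alternative led to a member being called between the genotypes, over 512 values of 24 results, of which 471 kept their direction. The genes called overall in footprints (1) were 3 with no filter, 2 at a mean count of at least 50 and 5 with DESeq2, and 0 to 520 over left-out libraries, the highest without both libraries of WT replicate 1, which leaves a lone WT culture that is assumed to vary like the other groups. In RNA (2) they were 6 with no filter, 13 with DESeq2, 0 with limma-voom and 1 with the RNA libraries alone, and 0 to 473 over left-out libraries, again highest without WT replicate 1. For translational efficiency (0) they were 1 with DESeq2, 2 with protein-coding transcripts and 0 to 1 over left-out libraries.

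WT and DKO cultures share only a number. With this number as a replicate block 11 genes were called in footprints, Slc7a3 (1.38) among them, and 10 in RNA, and with crossed numbers 9 and 11. Deviations of same-numbered WT and DKO libraries correlated at -0.143 in footprints and -0.103 in RNA. With the culture as a block 0 genes were called in translational efficiency, 6 members were called in each footprints-over-RNA comparison (Sms in addition, at -0.27 in WT and -0.29 in DKO), and Azin1 translational efficiency was 0.000643.

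Small values changed sign. With protein-coding transcripts alone the genotype value was 0.076 for Oaz1 and 0.0538 for Sat1 in footprints, 0.0713 for Oaz2 in RNA and 0.0484 for Azin1 in translational efficiency, and Sat1 footprints over RNA in WT was 0.0431, with Srm at -0.22 in WT and -0.27 in DKO. Azin1 translational efficiency was 0.00433 with limma-voom. Odc1 footprints over RNA in WT was -0.21 with TMM within each assay, -0.00541 at a mean count of at least 50 and -0.38 per length, and Sat1 was 0.0173 with no filter. Per length Sms was 0.38 in WT and 0.34 in DKO, and Eif5a2 1.04 and 0.87. TMM within each assay moved the median of all genes to -0.25 in WT and -0.24 in DKO, and 8 members were then called in DKO.

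Over left-out libraries the footprint value ranged from -0.12 to 0.43 for Sms, -0.149 to 0.063 for Oaz1 and -0.12 to 0.0586 for Sat1. The RNA value ranged from -0.0555 to 0.0189 for Amd1, -0.126 to 0.0942 for Oaz2, -0.233 to 0.0377 for Odc1, -0.0649 to 0.442 for Sms and -0.00478 to 0.173 for Oaz1. Translational efficiency ranged from -0.33 to 0.27 for Sms, -0.101 to 0.113 for Azin1, -0.232 to 0.0369 for Odc1, -0.0246 to 0.259 for Oaz2, -0.169 to 0.0303 for Srm and -0.299 to 0.0133 for Eif5a2. Footprints over RNA in WT ranged from -0.0827 to 0.175 for Odc1 and -0.553 to 0.0254 for Sms. Where no cause is named, the cause was not tested. With 2 libraries a group, small changes lie below what these data can show.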

Other observations

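Members did not move together across the 8 libraries. After each gene's mean of each assay was subtracted from log2(CPM + 0.5), Pearson's r was above 0 for 17 of 28 pairs. It was highest for Oaz1 and Sat1 (0.869), followed by Odc1 and Amd1 (0.60), and lowest for Odc1 and Sms (-0.897). These libraries share cultures and scaling, and WT replicate 2 is the highest library of Odc1 and the lowest of Sms in both assays.

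Among 9230 genes with a mean of at least 10 CPM in both assays, those most like Odc1 by the same measure were Plod2 (0.994), Ccnd2 (0.991) and Crip2 (0.991). For Plod2 the WT footprints held 16.7 and 30.7 CPM and the DKO footprints 15.0 and 14.5 CPM, so that it too was highest in WT replicate 2. Those most like Oaz1 were Mrps14 (0.982), Tmsb10 (0.971) and Ccnl1 (0.963). For Tmsb10 the WT footprints held 4232 and 4823 CPM and the DKO footprints 4977 and 3487 CPM, with DKO replicate 2 the lowest, as for Oaz1.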
